A study of Trichoderma harzianum with 18 samples.

Results

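The genes described here are 94 of the 14290 annotated genes of *T. harzianum* CBS 226.95, or 0.658%, that were well expressed in 3 of the study's 6 groups of cultures and low in the other 3. They were chosen from the measured levels themselves, in FPKM, the fragments mapped to a gene scaled for its length and for the size of the library. For each gene the median of the 3 replicate libraries of a group was taken and 0.5 FPKM was added to it. A gene was kept when its value was at least 20 in the wild type with either carbon source and in the mutant Δ*xyr1-2* with D-fructose, and each of these was at least 5 times each value of the 3 other groups, which are the mutant on cellulose and both strains without a carbon source. In the wild type, the values on cellulose and D-fructose also had to lie within 3-fold of each other. None of the 360 further genes that the authors added to the annotation met the rule. In this text the first 3 groups are called fed and the other 3 starved, although the mutant cultures on cellulose did contain cellulose.

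The study sequenced poly-A RNA from mycelium of 2 strains, the Δ*xyr1-2* mutant and its parent, the wild type CBS 226.95, each grown on microcrystalline cellulose, on D-fructose or without an added carbon source, with 3 replicate cultures in each of the 6 groups. All 18 cultures were collected 18 h after washed mycelium had been moved from pre-cultures grown on D-fructose with peptone. The mutant is a single deletion strain in which a hygromycin resistance cassette stands in place of *xyr1*, so effects of the deletion and of the cassette cannot be told apart, and the 3 sets of pre-cultures each had a spore plate of their own. Between 16208381 and 21263103 reads were counted on genes per library, and *xyr1* (M431DRAFT_1126) had between 0 and 11 reads in the 9 mutant libraries and between 1272 and 13130 in the 9 wild-type libraries.

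Filamentous fungi take up simple sugars through transporters of the plasma membrane and pass them through glycolysis to pyruvate, which is oxidised in mitochondria or, through pyruvate decarboxylase and alcohol dehydrogenase, turned into ethanol. Cellulose cannot be taken up as such. It is first cut outside the cell by secreted enzymes, and in *Trichoderma* the transcriptional activator XYR1 is known for switching on the genes of these enzymes.

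Summed over the 94 genes, the level was 41347, 3334 and 3132 FPKM in the 3 libraries of the mutant on cellulose, 5063, 2807 and 3027 in those of the mutant without a carbon source and 2911, 3013 and 4533 in those of the wild type without a carbon source. The sums were 96955, 98827 and 155526 FPKM in the wild type on cellulose, 199981, 126070.5 and 145906 in the mutant on D-fructose and 128003, 86438 and 114768 in the wild type on D-fructose. The fed libraries all stood above the starved ones, and 1 starved library, replicate 1 of the mutant on cellulose, stood far above the other 8. The 94 genes held between 8.05% and 18.9% of all FPKM in the fed libraries. In the starved libraries they held 4.32% in that replicate and between 0.289% and 0.538% in the others. In these bulk samples fewer expressing hyphae and less RNA in each of them cannot be told apart.

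**Figure D1:**
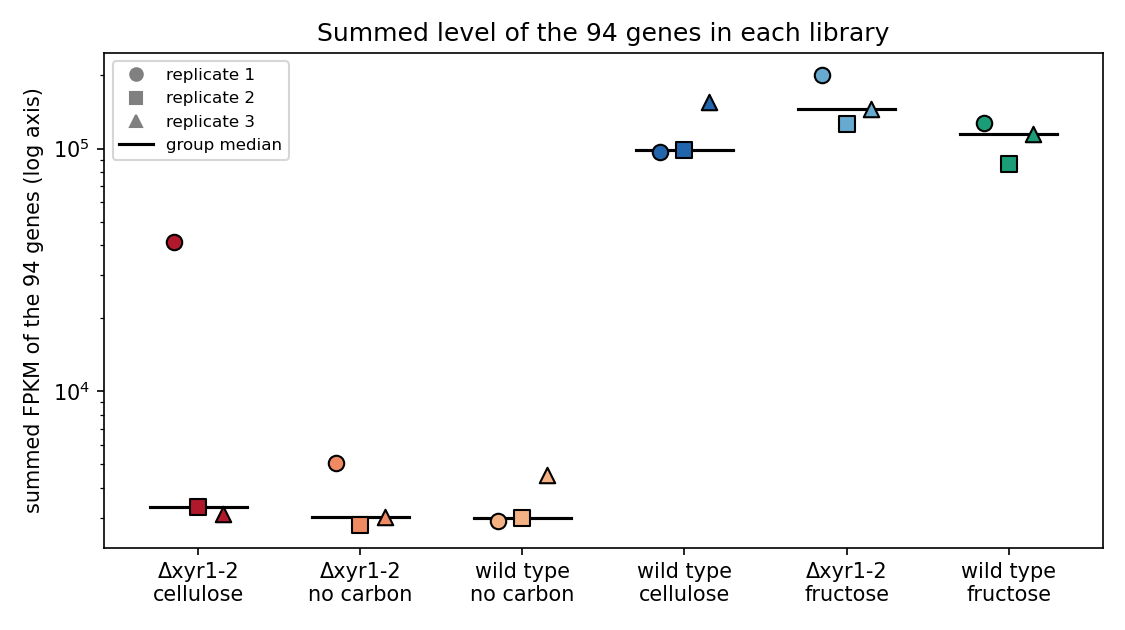
Summed FPKM of the 94 genes (log axis) in each library, by group, with a symbol for each replicate and a line at the group median. The fed libraries lie between 86438 and 199981 FPKM, and among the starved libraries replicate 1 of the mutant on cellulose, at 41347 FPKM, stands apart from the rest, which lie between 2807 and 5063.

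The rule ordered the genes by their smallest ratio, which is the lowest fed value divided by the highest starved value. It ran between 5.06 and 791 with a median of 10.6, and 50 genes were at 10 or more, 17 at 50 or more and 11 at 100 or more. The mean level over the 9 fed libraries ran between 26.7 and 28087 FPKM with a median of 286, and 22 genes averaged over 1000 FPKM. Over the 9 starved libraries the means had a median of 11.01 FPKM. The members nearest above the limit of 5-fold were M431DRAFT_101756, at a ratio of 5.06, M431DRAFT_381453, at 5.09, and M431DRAFT_514344, at 5.10. The nearest below it that met every other part of the rule were M431DRAFT_491386, at 4.94, and M431DRAFT_510202 and M431DRAFT_91138, at 4.92 each.

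**Figure D2:**
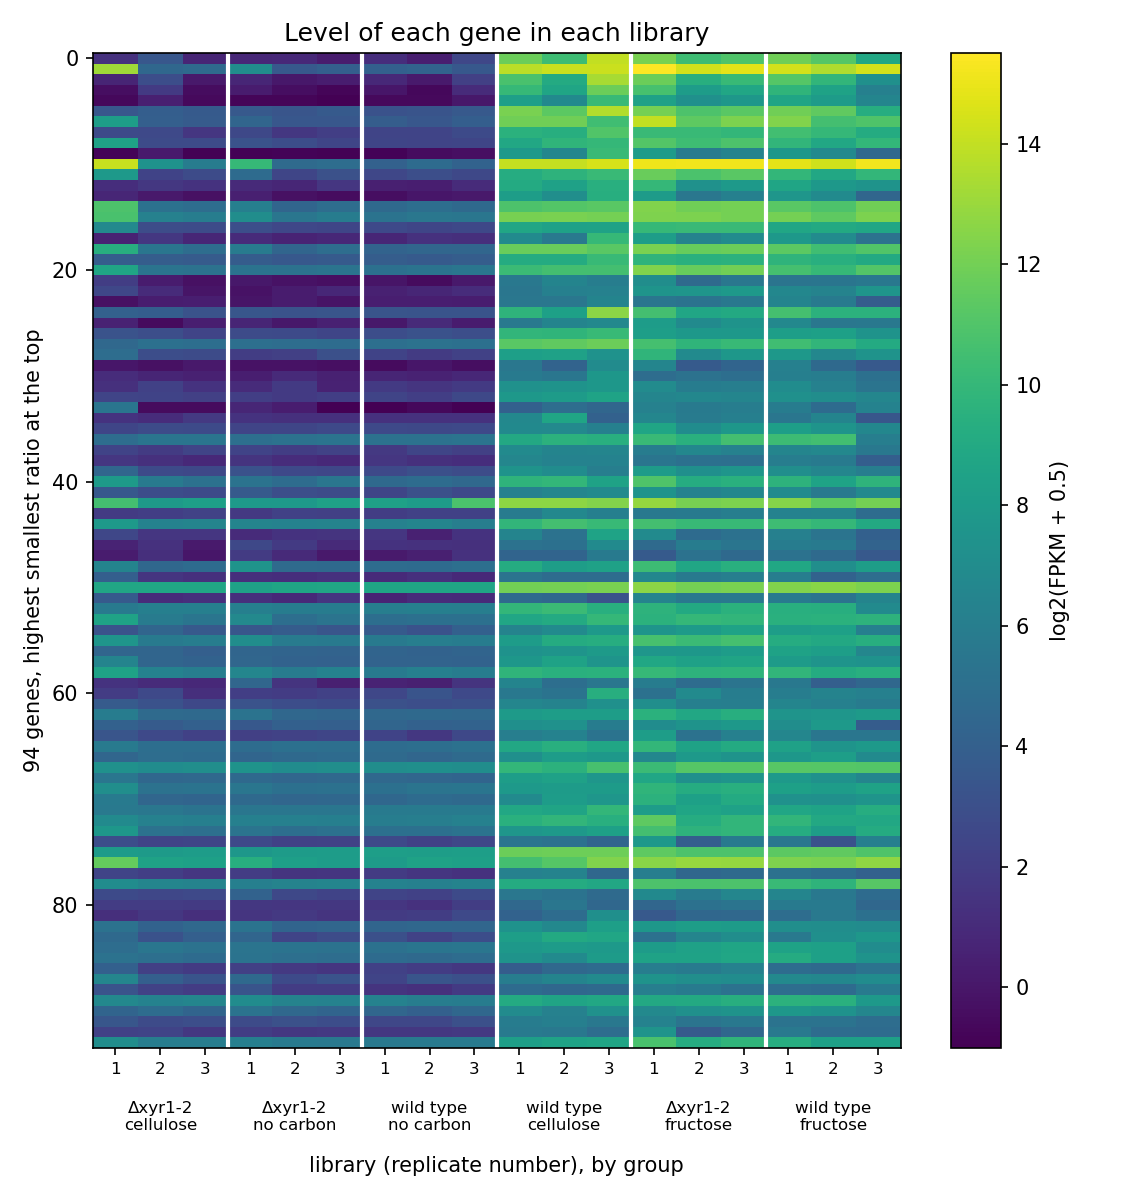
Level of each of the 94 genes, as log2(FPKM + 0.5), in each of the 18 libraries, with the highest smallest ratio at the top. The 9 libraries on the left are starved and the 9 on the right fed, and the first column, replicate 1 of the mutant on cellulose, holds genes at levels close to those of the fed libraries.

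In 84 of the 94 genes no starved library reached the lowest fed library, and without replicate 1 of the mutant on cellulose this held for 91. Over all 13864 annotated genes with a value, the 9 fed libraries stood above the 9 starved ones in 4.76%, and the starved above the fed in 28.0%. These counts follow in part from the rule, which set the medians apart. The rule set each fed group against each starved one. Of these pairs, 3 that share no library were compared over the whole table, and in these the members' counts are a description only. By the quasi-likelihood test of edgeR, called at an adjusted p under 0.05, more than 2-fold and with a mean over 1 FPKM in a group, 83 of the 94 were lower in the mutant than the wild type on cellulose, where 20.7% of all genes tested were called lower. All 94 were lower without a carbon source than on D-fructose, both in the wild type, where 15.5% of all genes were called lower, and in the mutant, where 20.3% were. The median log2 fold changes of the members were −4.16, −4.73 and −5.28 in these 3 comparisons, and those of all genes tested 0.00068, 0.04 and 0.05. The 11 members without a call on cellulose were all among the genes that were high in replicate 1 of the mutant, and without that library all 94 were called lower there.

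What the 94 genes encode could be read for only 3 of them, because the annotation at hand names 818 genes of the table and the other 91 members are known here by their identifiers alone. Whether they serve growth was therefore not tested. The members were found in the RefSeq annotation of assembly Triha v1.0, where their gene spans had a median of 1457 bp, against 1340 bp over all annotated genes, and 25.5% of the members, against 32.9% of all genes, were under 1000 bp.

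Both enzymes that turn pyruvate into ethanol were represented. M431DRAFT_126634 is the ortholog of *pdcA*, which encodes pyruvate decarboxylase. It had 657, 44.5 and 29.5 FPKM in the mutant on cellulose, 56.8, 20.5 and 29.1 in the mutant without added carbon and 18.6, 20.997 and 21.3 in the wild type without a carbon source. In the fed groups it had 3355, 3388 and 2512 FPKM in the wild type on cellulose, 4674, 3257 and 3519.9 in the mutant on D-fructose and 2646, 1421 and 2111 in the wild type on D-fructose. No starved library reached a fed one, and the highest starved value was that of replicate 1 of the mutant on cellulose.

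M431DRAFT_77454 is the ortholog of *adhA*, which encodes alcohol dehydrogenase, and the member with the third highest mean level in the fed libraries. It had 1512, 253 and 319 FPKM in the mutant on cellulose, 237, 232 and 343 in the mutant without added carbon and 346, 283 and 1829 in the wild type without a carbon source. Its levels were 6750.4, 6561 and 5592 FPKM in the wild type on cellulose, 7570.2, 4510.3 and 4817 in the mutant on D-fructose and 5755, 2691 and 4279 in the wild type on D-fructose. The starved libraries again stayed below the fed ones, and a pair of them stood apart, replicate 1 of the mutant on cellulose and replicate 3 of the wild type without a carbon source. The paralog *pdcB* (M431DRAFT_526491) had a median under 1 FPKM in every group.

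M431DRAFT_481046 belongs to the sugar transporters, membrane proteins that carry sugars into the cell (Pfam family PF00083, as the study annotated it). It had 17.1, 12.7 and 15.9 FPKM in the mutant on cellulose, 11.4, 16.5 and 15.2 in the mutant without added carbon and 19.9, 16.6 and 17.8 in the wild type without a carbon source. In the wild type on cellulose it had 146, 165 and 61.4 FPKM, in the mutant on D-fructose 131, 182 and 219 and in the wild type on D-fructose 135, 236 and 13.4. Replicate 3 of the wild type on D-fructose lay among the starved libraries, so the fed and starved libraries overlapped for this gene although their medians did not.

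**Figure D3:**
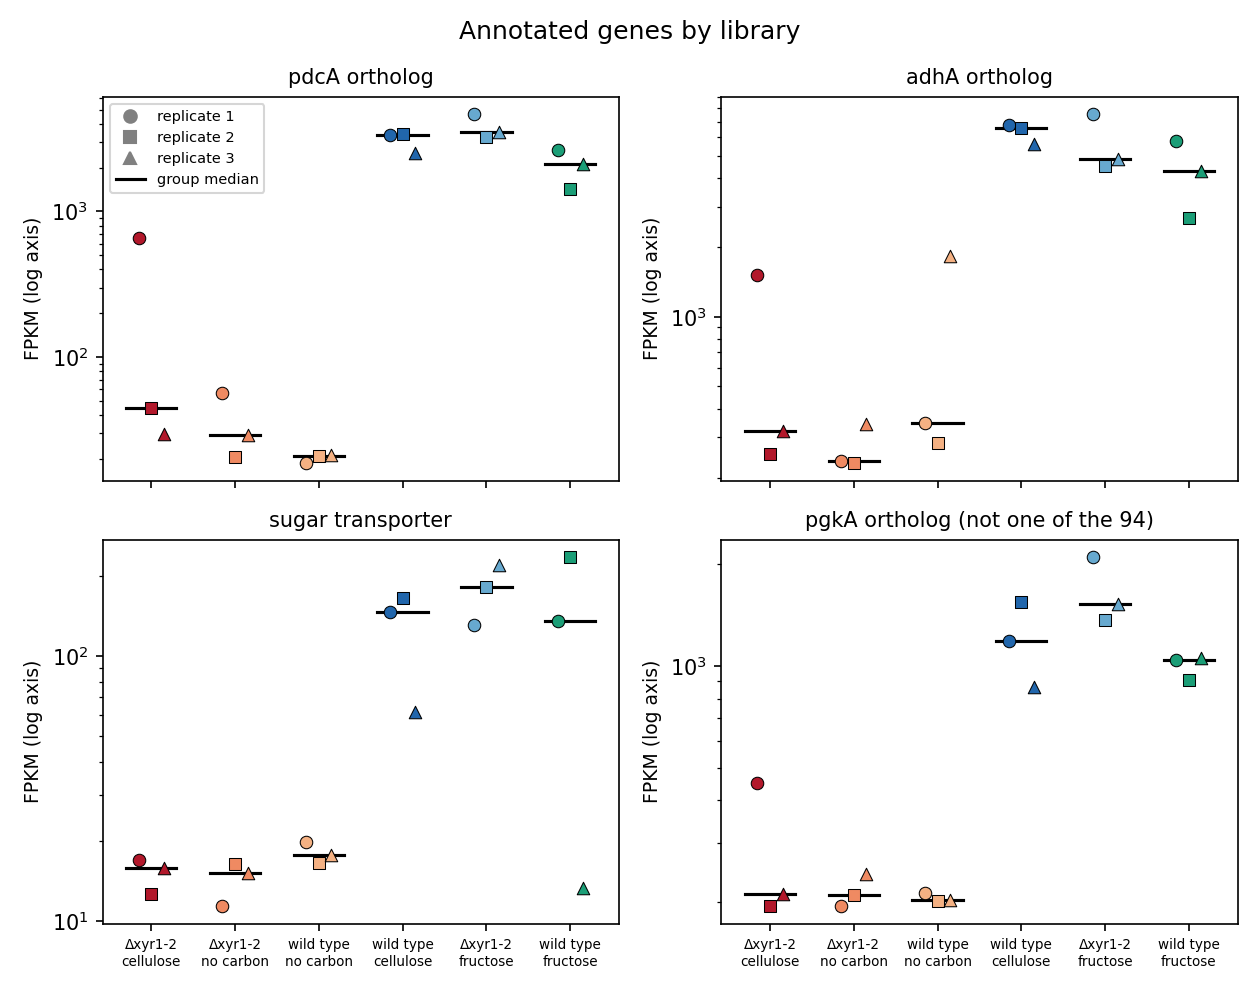
FPKM (log axis) of the *pdcA* ortholog, the *adhA* ortholog, the sugar transporter M431DRAFT_481046 and, for comparison, the *pgkA* ortholog M431DRAFT_510202, which lies just below the limit of 5-fold, in each library by group, with a line at the group median. Both ethanol genes stand higher in every fed library than in any starved one, and the transporter does not, with 13.4 FPKM in 1 D-fructose library of the wild type.

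The wider pathways around these 3 genes were read from the study's own annotation, in lists chosen after the files had been seen. They were tested with the same 3 comparisons. The 3 genes themselves were chosen by the rule for falls in the same groups, so within the list counts they are a description only. Of the glycolysis list, which has 30 genes including the *pdcA* and *adhA* orthologs, 17 of 29 tested were lower and 1 higher in the mutant than the wild type on cellulose. Without a carbon source, 8 of 29 were lower than on D-fructose and none higher in the wild type, and 18 of 28 lower and none higher in the mutant. The list's median log2 fold changes were −1.59, −0.69 and −1.25. Of all genes tested, 21.5% were called higher in the mutant on cellulose, 14.4% without a carbon source in the wild type and 18.7% without one in the mutant. Scaled by library size alone, which moved the median of all genes to 0.68, 0.42 and 0.73, the list's medians stayed negative at −0.89, −0.31 and −0.51, with 13, 7 and 10 genes lower and 2, 1 and 3 higher.

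Among the glycolysis genes that were not members, M431DRAFT_510202, the ortholog of *pgkA*, which encodes phosphoglycerate kinase, fell by 2.74 ± 0.49 on the log2 scale in the mutant on cellulose against the wild type (SE, adjusted p = 0.00435, edgeR, n = 3 each). Without a carbon source it fell by 2.67 ± 0.20 in the wild type (adjusted p = 8.2e-05) and by 3.70 ± 0.35 in the mutant (adjusted p = 0.00030). M431DRAFT_76434, the ortholog of *enoA*, which encodes enolase, fell by 2.97 ± 0.52 in the mutant on cellulose (adjusted p = 0.00391), by 2.01 ± 0.25 without a carbon source in the wild type (adjusted p = 0.00067) and by 3.00 ± 0.43 without one in the mutant (adjusted p = 0.00136). M431DRAFT_506581, the ortholog of *gpdA*, which encodes glyceraldehyde-3-phosphate dehydrogenase, fell by 1.91 ± 0.42, 1.25 ± 0.18 and 2.30 ± 0.34 in the same 3 comparisons (adjusted p = 0.00925, 0.00147 and 0.00152). The falls of these genes on the same scale were smaller than the median of the 94 members. That difference follows in part from the rule, which chose the members by their falls in these groups. The 1 gene of the list that was higher in the mutant on cellulose was M431DRAFT_499226, the ortholog of *aldA*, which encodes aldehyde dehydrogenase, with a log2 fold change of 1.03 ± 0.26 (adjusted p = 0.0151).

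Of the 21 genes of the tricarboxylic acid cycle, none of them a member, 15 were lower and 2 higher in the mutant than the wild type on cellulose, 1 was lower without a carbon source than on D-fructose in the wild type, and 9 were lower in the mutant. These counts depended on the scaling, since by library size alone 8 were lower and 3 higher in the mutant on cellulose, 0 lower and 2 higher in the wild type without a carbon source, and 3 lower and 2 higher in the mutant without one. M431DRAFT_485868, the ortholog of *citA*, which encodes citrate synthase, fell by 2.93 ± 0.25 in the mutant on cellulose (adjusted p = 0.00037) and by 2.39 ± 0.47 in the mutant without a carbon source (adjusted p = 0.00476), while in the wild type its log2 fold change of −0.98 ± 0.35 did not pass (adjusted p = 0.0513). M431DRAFT_2255, the ortholog of *acuD*, which encodes isocitrate lyase of the glyoxylate cycle, rose by 1.88 ± 0.20 in the mutant on cellulose (adjusted p = 0.00071). Of the pentose phosphate pathway, 3 of 9 genes tested were lower and 1 higher on cellulose, 1 of 10 lower in the wild type and 2 of 10 lower in the mutant without a carbon source. Of 90 sugar transporters, M431DRAFT_481046 among them, 13 of 79 tested were lower and 28 higher in the mutant on cellulose, 11 of 76 lower and 23 higher in the wild type without a carbon source, and 10 of 75 lower and 24 higher in the mutant without one. Scaled by library size alone, the pentose phosphate pathway had 0 genes lower and 1 higher on cellulose, and 1 lower and 1 higher without a carbon source in either strain. The transporters then had 11 lower and 41 higher on cellulose, 9 lower and 28 higher without a carbon source in the wild type, and 7 lower and 39 higher in the mutant.

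The member with the highest smallest ratio, M431DRAFT_118476, lay in the longest run of members along the genome. Members were counted as a run when no more than 1 other gene stood between them, and 20 of the 94 fell into 8 such runs, 6 of them pairs. The longest spans 27081 bp of its assembly sequence, from base 76895 to base 103975 (Triha v1.0), and holds M431DRAFT_88948, M431DRAFT_145786, M431DRAFT_118476, M431DRAFT_145790 and M431DRAFT_17731 in this order. These 5 genes have smallest ratios of 196, 371, 791, 483 and 113, which are all among the 10 highest of the 94. None of them is named in the annotation at hand.

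M431DRAFT_118476 had 2.00, 10.9 and 1.13 FPKM in the mutant on cellulose, 1.25, 1.37 and 0.673 in the mutant without added carbon and 1.73, 0.819 and 5.19 in the wild type without a carbon source. It had 3482, 1322 and 16465 FPKM in the wild type on cellulose, 4632, 1309 and 1976 in the mutant on D-fructose and 3861, 2250.3 and 466 in the wild type on D-fructose. The fed libraries differed widely among themselves, with replicate 3 of the wild type on cellulose the highest and replicate 3 of the wild type on D-fructose the lowest.

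M431DRAFT_145790, its neighbour, had the same highest and lowest fed libraries, with 1.14, 6.98 and 0.595 FPKM in the mutant on cellulose, 1.24, 0.557 and 0.764 in the mutant without added carbon and 1.40, 0.637 and 3.89 in the wild type without a carbon source. It had 1772, 544 and 10426 FPKM in the wild type on cellulose, 3515, 654 and 1092 in the mutant on D-fructose and 2305, 918 and 153 in the wild type on D-fructose. For all 5 members of the run replicate 3 of the wild type on cellulose was the highest library of all, replicate 3 of the wild type on D-fructose the lowest fed library, and replicate 2 of the mutant on cellulose the highest starved library. M431DRAFT_17731, at the far end of the run, had the lowest fed mean of the 5, with 0.0696, 0.635 and 0.0334 FPKM in the mutant on cellulose, 0.0411, 0.0678 and 0.0398 in the mutant without added carbon and 0.0660, 0.242 and 0.314 in the wild type without a carbon source, against 211, 108 and 23.4 in the wild type on D-fructose.

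A pair of genes inside the run are not members. M431DRAFT_118482, between M431DRAFT_145790 and M431DRAFT_17731, had a smallest ratio of 130 and missed only the limit on the wild type, with a value on cellulose 3.32 times that on D-fructose. It had 0.30038, 0.821 and 0.0666 FPKM in the mutant on cellulose, 0.137, 0.0225 and 0.106 in the mutant without added carbon and 0.197, 0.134 and 0.458 in the wild type without a carbon source, against 370.1, 164 and 1165 in the wild type on cellulose, 483, 67.5 and 103 in the mutant on D-fructose and 259.5, 111 and 20.3 in the wild type on D-fructose. Its highest and lowest fed libraries were those of the members beside it. M431DRAFT_88544, near the middle of the run, had 15.6, 19.4 and 18.6 FPKM in the mutant on cellulose, 20.1, 23.2 and 17.8 in the mutant without added carbon and 20.8, 21.7 and 24.3 in the wild type without a carbon source, against 72.9, 59.7 and 172 in the wild type on cellulose, 37.8, 37.7 and 30.6 in the mutant on D-fructose and 84.1, 65.8 and 17.4 in the wild type on D-fructose. It was called lower in all 3 comparisons but overlapped between fed and starved libraries. Just beyond M431DRAFT_17731, M431DRAFT_509408 had a smallest ratio of 17.7 and missed only the level of 20, with a lowest fed value of 19.5. The end of the run on that side was thus set by the rule.

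**Figure D4:**
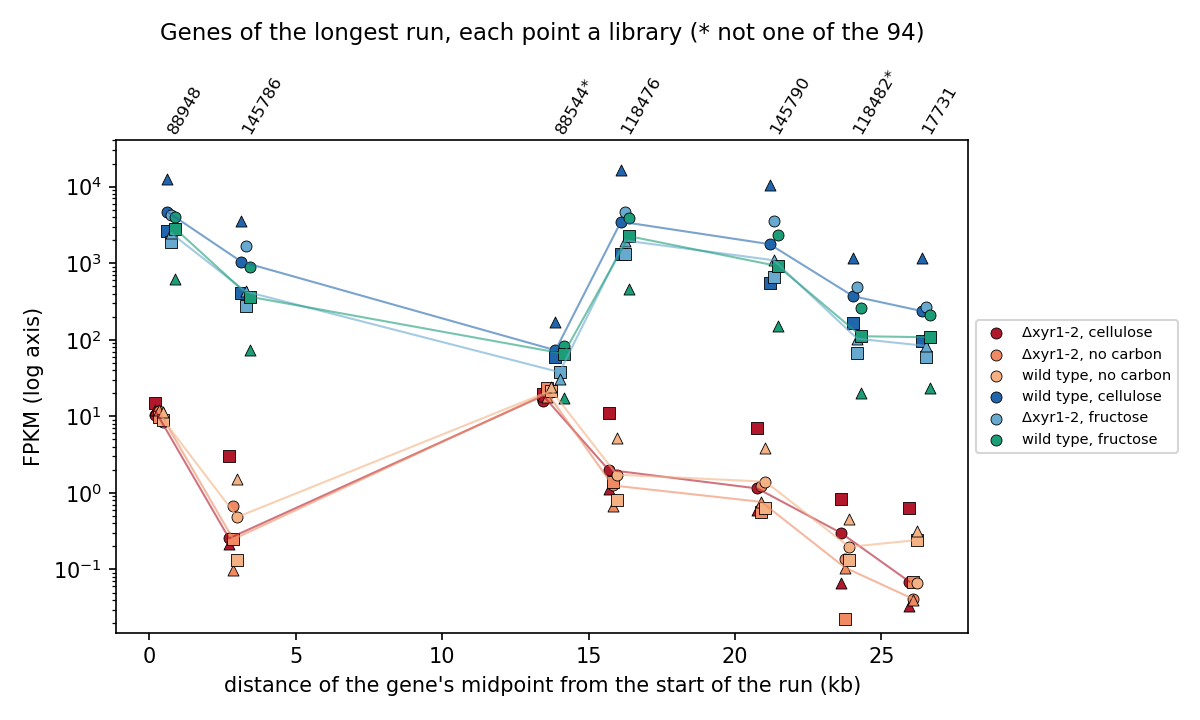
FPKM (log axis) of the 7 genes of the longest run in each library, against the distance of the gene's midpoint from the start of the run in kb, with lines through the group medians and stars on the genes that are not among the 94. The fed and starved libraries are far apart for the 5 members, while for M431DRAFT_88544 the starved medians, the highest at 21.7 FPKM, come close to the lowest fed median of 37.7.

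As a description, the log2 levels over the 9 fed libraries were compared with those of M431DRAFT_118476. Pearson's r was 0.99 for M431DRAFT_145790 and M431DRAFT_17731 and 0.97 for M431DRAFT_88948 and M431DRAFT_145786, all in the run. The nearest members elsewhere were M431DRAFT_513160 (r = 0.98), M431DRAFT_510431 (r = 0.97) and M431DRAFT_514271 (r = 0.96). The genes share these 9 libraries, and no p-value was computed. M431DRAFT_513160, which has the fifth highest ratio, had 0.129, 0.868 and 0.173 FPKM in the mutant on cellulose, 0.0915, 0.0754 and 0 in the mutant without added carbon and 0.171, 0.180 and 0.535 in the wild type without a carbon source. It had 314, 115 and 1116 FPKM in the wild type on cellulose, 343, 158 and 211 in the mutant on D-fructose and 410.3, 264 and 90.3 in the wild type on D-fructose. Its highest and lowest fed libraries were those of the run.

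The other runs were shorter. M431DRAFT_103199, M431DRAFT_103202 and M431DRAFT_502189 followed each other with ratios of 118, 34.9 and 6.62, and their fed means were 1084, 51.9 and 234 FPKM. M431DRAFT_4170 and M431DRAFT_112709 were neighbours with ratios of 706 and 115. M431DRAFT_86379 and M431DRAFT_86327 were neighbours with ratios of 17.5 and 100.4. M431DRAFT_505888 and M431DRAFT_363292 had ratios of 6.19 and 35.6, and the span of M431DRAFT_505888 overlaps that of its other neighbour, M431DRAFT_549088, so reads in the shared stretch cannot be assigned with certainty. The levels of neighbours, which FPKM gives per length, could thus differ widely.

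The members with the highest levels were M431DRAFT_86327 and M431DRAFT_4170, with fed means of 28087 and 22767 FPKM. Both are short, and M431DRAFT_4170 has the shortest span of the 94, at 320 bp. M431DRAFT_86327 had 17494, 172 and 60.5 FPKM in the mutant on cellulose, 1074, 25.6 and 29.0 in the mutant without added carbon and 16.9, 26.9 and 17.6 in the wild type without a carbon source. It had 17303, 17220.3 and 22902 FPKM in the wild type on cellulose, 34938, 35728 and 36590.0 in the mutant on D-fructose and 29592, 20516 and 37989.8 in the wild type on D-fructose. Replicate 1 of the mutant on cellulose reached the level of the wild type on cellulose, and replicate 1 of the mutant without a carbon source stood far above its own group at a lower level.

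M431DRAFT_4170 had 9216, 22.8 and 26.0 FPKM in the mutant on cellulose, 133, 11.8 and 15.7 in the mutant without added carbon and 15.9, 18.3 and 11.4 in the wild type without a carbon source. It had 14315, 18796 and 18683 FPKM in the wild type on cellulose, 46470.4, 21391 and 29227 in the mutant on D-fructose and 22040.4, 12090.0 and 21887 in the wild type on D-fructose. The same libraries stood apart. Of the 5 members highest in the fed libraries, M431DRAFT_94640 showed none of this, with 440.0, 436 and 441 FPKM in the mutant on cellulose against 4035, 4347 and 4582 in the wild type on cellulose.

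Replicate 1 of the mutant on cellulose differed from its group. Where it was the highest of the 3, the median that the rule kept low was the higher of replicates 2 and 3. The shares of members and of all genes that follow are therefore a description, since the rule chose the members partly by these values. In this library 28 of the 94 genes, or 29.8%, were over 3-fold above the higher of replicates 2 and 3, against 62 of 10647 annotated genes with a mean over 1 FPKM, or 0.582%. Over 10-fold there were 10 of the 94 and 11 of all, the other gene being M431DRAFT_510361, at 28.9 FPKM in replicate 1 against 2.43 and 2.08 in replicates 2 and 3. The summed FPKM of the 10 members was 32004 in replicate 1, against 383 and 240.1 in replicates 2 and 3. M431DRAFT_4170 and M431DRAFT_86327 together gave 64.6% of the members' sum in that library. The *pdcA* ortholog, at 657 FPKM, was also among the 10. The other members of the 10 included M431DRAFT_120519, with 1879, 35.7 and 28.8 FPKM, M431DRAFT_83753, with 1717, 75.3 and 63.4, and M431DRAFT_112709, with 365, 6.38 and 6.26.

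None of the 5 members of the longest run was among the 28, and in replicate 1 these 5 were at most 0.712 times the higher of the other replicates. The remaining 66 members had a median ratio of 1.04. In the mutant without a carbon source, 22 of the same 28 genes were also highest in replicate 1, with a median ratio of 1.47 to the higher of the others, as were 42 of the other 66 members, with a median ratio of 1.06. In the mutant on D-fructose replicate 1 was the highest for 23 of the 28 and 42 of the 66. In the mutant without a carbon source, for the 10 genes the sum was 1536 FPKM in replicate 1, against 149.9 and 193 in replicates 2 and 3. In the wild type without a carbon source 3 of the 28 and 18 of the 66 were highest in replicate 1. The counts were 12 of the 28 and 46 of the 66 in the wild type on D-fructose, and 8 and 10 in the wild type on cellulose. By the study's methods, a set of pre-cultures supplied cultures on each carbon source. Whether the replicate numbers in the labels follow these sets is not stated. Replicate 1 of the mutant on cellulose had 19158004 counted reads and 7 reads on *xyr1*, within the range of the other mutant libraries. What set this library apart was not tested.

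**Figure D5:**
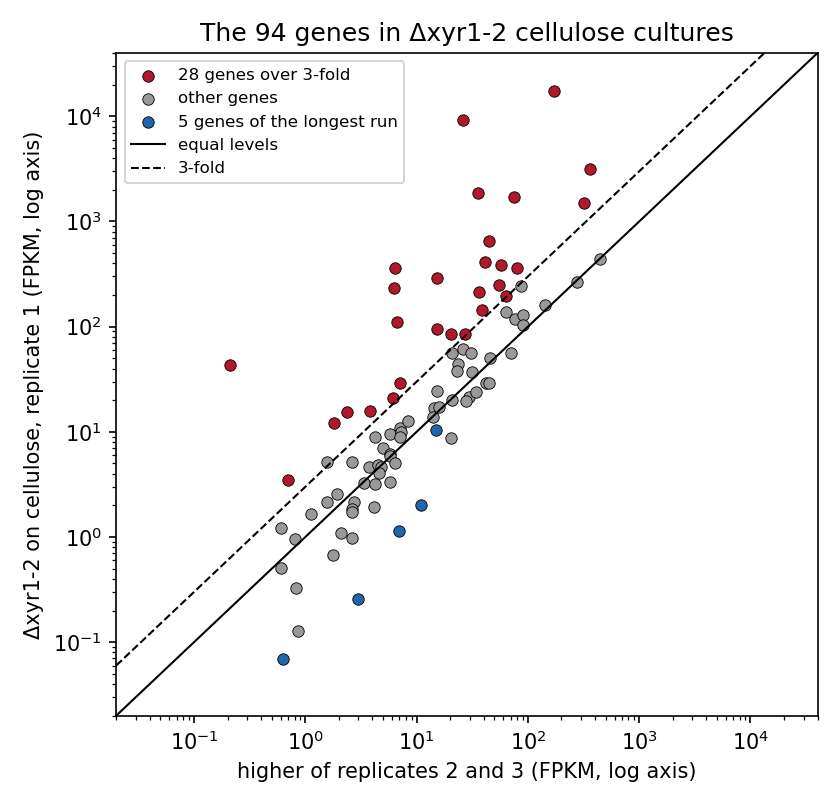
Level of each of the 94 genes in replicate 1 of the mutant on cellulose (vertical, FPKM, log axis) against the higher of replicates 2 and 3 (horizontal, FPKM, log axis), with lines at equal levels and at 3-fold. The 28 genes over 3-fold reach up to 17494 FPKM, and the 5 genes of the longest run lie below the line of equal levels.

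On D-fructose the rule did not compare the strains with each other, but it used the levels of both. It kept the wild type within 3-fold of its level on cellulose and set no upper limit on the mutant. The lean of the members as a set is therefore a description only. Their levels leaned higher in the mutant, but none of the 94 passed by edgeR. By edgeR 0 of the 94 were called in the mutant against the wild type on D-fructose, where 0.0% of 10908 genes were called higher and 0.00917% lower, and 24, or 25.5%, had an unadjusted p under 0.05, of which 23 were higher, against 8.05% of all genes tested. DESeq2 called 11 of the 94 higher and none lower, and 1.07% of all genes. The members' median log2 fold change was 0.69, against −0.03 for all genes tested, and 85 of the 94 were positive. Scaled by library size alone the median of all genes moved to −0.29 and that of the members to 0.37, with 70 positive. Without replicate 1 of the mutant, the library in which 65 of the members were highest, the members' median was 0.27, with 65 positive.

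M431DRAFT_476758 had the smallest p-value of the members. It had 1084, 1141 and 1189 FPKM in the mutant on D-fructose, against 439, 519 and 440.3 in the wild type on D-fructose, with no overlap (log2 fold change 1.57 ± 0.27, SE, adjusted p = 0.443 by edgeR, n = 3 each). M431DRAFT_500192 had 779.6, 339 and 554 FPKM in the mutant, against 165, 155 and 185 in the wild type, again with no overlap (log2 fold change 2.06 ± 0.43, adjusted p = 0.453 by edgeR). Both were among the 11 called by DESeq2, as was M431DRAFT_76601, with 5333, 3202 and 3982 FPKM in the mutant and 1603, 1061 and 2176 in the wild type. The other 8 were M431DRAFT_509873, M431DRAFT_100272, M431DRAFT_473708, M431DRAFT_476923, M431DRAFT_89888, M431DRAFT_481479, M431DRAFT_499082 and M431DRAFT_507685, with log2 fold changes between 1.24 and 2.01 by DESeq2. The *pdcA* ortholog had a log2 fold change of 1.19 ± 0.43 (adjusted p = 0.581 by edgeR) and was not among them.

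Without a carbon source none of the members passed in the comparison of the strains. The rule had kept the medians of both these groups low, which limits how far members could differ between them. By edgeR 0 of the 90 members that passed the filter on low counts were called in the mutant against the wild type, where 0.0% of 11387 genes were called higher and 0.132% lower. At an unadjusted p under 0.05 there were 13, or 14.4%, of which 9 were higher, against 6.48% of all genes tested. DESeq2 called 0 members, where it called 0.196% of all genes. The members' median log2 fold change was 0.08, with a range of −1.59 to 4.25. The highest was that of M431DRAFT_86327, with 1 high library in the mutant (4.25 ± 1.41, adjusted p = 0.753 by edgeR). The lowest was that of the *adhA* ortholog, with 1 high library in the wild type (−1.59 ± 0.65, adjusted p = 0.753 by edgeR).

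The test of the difference between the strains in the fall without a carbon source, as an interaction over 12 libraries, gave 0 calls among the 94 and among all 11826 genes tested by edgeR, with 0.0% called in either direction. DESeq2 called 66 of all genes, or 1.07% of those to which it gave an adjusted p. Before adjustment by edgeR 973 were under 0.05. At an unadjusted p under 0.05 by edgeR there were 18 members, or 19.1%, against 8.23% of all genes. Of the 18, 17 had the larger fall in the mutant. DESeq2 called 6 of the 88 members to which it gave an adjusted p, each with the larger fall in the mutant. All 6 were among the 11 it called on D-fructose. The members' median was −0.69, against −0.00462 for all genes. The interaction uses the same D-fructose libraries as the comparison of the strains, so the limit set by the rule there holds here too. Leaving out replicate 1 of the mutant on D-fructose moved the members' median to −0.20. Without replicate 2 of the mutant on D-fructose, edgeR called 1 member, M431DRAFT_500192, at −2.56 ± 0.33 (adjusted p = 0.0321).

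The mutant on cellulose was set against both groups without a carbon source. The rule had kept the medians of these 3 groups low, which limits how far members could differ among them. The members' counts here are therefore a description only. By edgeR 0 of 90 members were called against the mutant without a carbon source, where 0.0782% of 11509 genes were called higher and 0.0% lower, and 9 of the 90 had an unadjusted p under 0.05, all higher, against 4.47% of all genes. Against the wild type without a carbon source 0 of 91 were called, where 0.104% of 11538 genes were called higher and 0.078% lower, and 23, or 25.3%, had an unadjusted p under 0.05, of which 22 were higher, against 15.1% of all genes. DESeq2 called 0 members in both, where it called 0.123% and 0.560% of all genes. The members' median log2 fold changes were 0.32 and 0.41. These comparisons share the libraries of the mutant on cellulose. Without replicate 1 the median against the mutant without a carbon source was −0.05, with 40 of 91 members positive. Without it the median against the wild type was 0.06, and edgeR then called 1 member, M431DRAFT_86327, higher by 2.46 ± 0.39 on the log2 scale (adjusted p = 0.0349), which had 172 and 60.5 FPKM in replicates 2 and 3 of the mutant on cellulose, against 16.9, 26.9 and 17.6 in the wild type without a carbon source. By the medians alone, 55 of the 94 were highest in the mutant on cellulose among the starved groups. Of these, 2 were so by more than 2-fold over both others, M431DRAFT_86327 and M431DRAFT_532670. For 62 of the 94 replicate 1 was the highest library of the mutant on cellulose, so the median was the higher of replicates 2 and 3. The same count of medians was not made over all genes.

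Within the fed groups, the ratio of the wild type on cellulose to that on D-fructose, which the rule limited to 3-fold, ran between 0.362 and 2.98 with a median of 1.06. It was above 2 for 13 genes and below 1/2 for 8. M431DRAFT_13658 had 2496, 2829 and 3609 FPKM in the wild type on cellulose, against 1403, 950.1 and 554 on D-fructose. M431DRAFT_505888 lay the other way, with 573, 559 and 481 FPKM in the wild type on cellulose, against 1147, 836 and 2412 on D-fructose. Neither gene overlapped between these groups. The spread between replicates was wide in the fed groups, where 20 genes on cellulose and 31 on D-fructose in the wild type differed over 3-fold between the highest and the lowest replicate, and 23 did in the mutant on D-fructose. In the starved groups 33 did in the mutant on cellulose, 14 in the mutant without a carbon source and 4 in the wild type without a carbon source.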

How the data were processed

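The deposited counts and FPKM were used. Per the labels and the methods of the study, the authors cleaned the reads, mapped them to the wild-type genome with STAR 2.5.2b, allowing at most 1 mismatch, and used HTSeq 0.5.4 to count them per gene. The raw counts were deposited for 14650 genes, and the authors also deposited FPKM, scaled by them for gene length and library size. Nothing in the sources used here says whether the counting used the strand.

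The members were chosen by the rule on FPKM medians given above, which also leaves out 2 identifiers, neither of which met its other parts. Members and lists were chosen with earlier results of these data known. Comparisons used the counts, with edgeR 4.0.16 (R 4.3.3) and its quasi-likelihood F-test on the 6 libraries of 2 groups (12 for the interaction), TMM normalization, the filterByExpr filter and Benjamini-Hochberg adjustment over all genes tested. TMM factors lay between 0.613 and 0.972 in fed libraries and between 1.18 and 1.29 in starved ones. Standard errors of log2 fold changes came from the F statistic. Shares of all genes given for DESeq2 are over the genes to which it gave an adjusted p. Alternatives were DESeq2 1.42.0, RLE size factors, library size alone, no filter, all 18 libraries in a fit, the replicate number as a block, and leaving out each library. The edgeR tests of 2 groups were run on simulated counts in which 200 genes had been changed 4-fold, with the outcome not given here. The interaction and DESeq2 were not run on simulated counts. Python 3.11.15 with pandas 2.3.3 and matplotlib 3.10.9 gave the other values.

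Whether same-numbered libraries of a strain shared a set of pre-cultures is not stated. Their deviations from the group means correlated over 0.1 for all 3 numbers (r = 0.22, 0.21 and 0.15) for the mutant cultures on cellulose and without carbon, and for none of the other comparisons tested. The highest r was 0.46, for replicate 1 of the strains on D-fructose, where replicates 2 and 3 gave 0.11 and −0.04. By the study's methods, the replicates of a group differ in spore plate and culture.

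The genes named are xyr1, the 5 members with the highest ratios, the 5 with the highest fed means, those nearest the limit of 5-fold, and genes chosen after their values were seen, which are the annotated members, the genes of runs and the examples of single libraries and pathways. Of 14 functional lists planned by product name none could be used, since no product names were at hand, and 4 lists of the study's annotation took their place. Promoter motifs were not analysed here.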

Additional observations from a re-analysis of the deposited data

How the results depend on the processing

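The rule gave 94 genes, and with a ratio of at least 8 it gave 61. With FPKM rescaled by TMM factors it gave 146, which held 89 of the 94. With the mean of the 3 libraries in place of the median it gave 68, of which 58 were among the 94. Without replicate 1 or replicate 2 of the wild type on cellulose it gave 96 each time, which held 78 of the 94. Leaving out single libraries gave between 67 and 98 genes, the lowest of these without replicate 2 of the mutant on cellulose. Between the strains on D-fructose, edgeR called 0 members, DESeq2 11 and a fit of all 18 libraries 2, and the range over single libraries left out was 0 to 0. For the interaction the counts were 0 by edgeR, 6 by DESeq2 and 0 to 1 over single libraries left out. The mutant on cellulose gave 0 to 1 against the wild type without a carbon source, 0 to 0 against the mutant without one, and the strains without a carbon source 0 to 0. The calls by RLE size factors, library size alone and no filter were 0 in these 5 comparisons, as were those with the replicate block, and the block moved no count of list genes by over 1.5 times. The list genes on cellulose gave 37 lower and 30 higher with it, against 48 and 32 without.

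Over the 4 lists together, 39 genes were lower and 24 higher without carbon than on D-fructose in the mutant, and 21 and 45 when scaled by library size alone. The cause was not tested beyond the shift of all genes given above. With single libraries left out, these counts ran between 31 and 41 lower and 21 and 36 higher. In the wild type they ran between 17 and 25 lower and 18 and 28 higher, and on cellulose between 33 and 52 lower and 28 and 43 higher.

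An alternative chosen after seeing the data left out replicate 1 of the mutant on cellulose. The members' summed FPKM in that group was then 3233 ± 143 (SD, n = 2), against 15938 ± 22005 (SD, n = 3) with it, and the members without overlap were 91, against 84. Each group held 3 libraries, and up to 31 members differed over 3-fold between replicates of a fed group. The smallest difference that could have been detected was not measured.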
